A study of Mus musculus with 4 samples.

Results

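The regions described here lay across the end of a coding sequence and the start of the 3'UTR in a table of m6A-sequencing regions from mouse embryonic stem cells. A region was taken when at least 1 of its annotation rows carried both the coding exon label and the 3'UTR label, so the choice rested on annotation and used no count. The rule gave 309 of 6697 distinct regions (4.61%), each under a different gene. In 267 of them that row held these labels alone, and in 42 it also held an intron. A second gene was annotated beside 63 of the regions, for 54 of them only as lying upstream of that gene. Whether reads were counted by strand is not given in the sources used here, so reads from an overlapping gene cannot be told apart in those regions.

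The study compared m6A-modified mRNA between Gsk-3 DKO cells, which lack both Gsk-3 kinases (double knockout), and wild-type cells. Both were feeder-free embryonic stem cells of the E14K strain, grown on gelatin and deprived for 14 days of LIF (leukaemia inhibitory factor), which maintains self-renewal. The 4 libraries were an m6A immunoprecipitate and an input of each genotype, with 1 library per group, and whether a genotype is a single clone is not given in the sources used here. The table had a DKO and a wild-type count for each region and no input column. Its column names give only the genotype, so the counts were taken as those of the m6A libraries, and an input correction before deposit cannot be told apart from none. Over all listed regions the counts summed to 27072 in DKO and 573971 in wild type, which is not the sequencing depth. The deletion could not be checked, because Gsk3a was not listed and Gsk3b had only an upstream region. Of 10 embryonic stem cell markers, Pou5f1, Esrrb, Lin28a and Utf1 were listed, and Nanog, Sox2, Klf4, Zfp42, Tdgf1 and Dppa5a were not. None of the 10 had a region across coding sequence and 3'UTR. Of the markers of other cell types, 3 of 5 for fibroblasts, 4 of 6 for primitive endoderm, 4 of 6 for neural cells and 5 of 6 for mesoderm were listed, and Pdgfrb, Gata6 and Sox11 had such a region.

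N6-methyladenosine (m6A) is placed on mRNA in the nucleus by a complex built around METTL3 and METTL14, at adenosines within a short consensus of which GGACU is the commonest form. Its sites are known to gather around stop codons and in the adjoining 3'UTR, where reader proteins of the YTH family bind and can shorten the life of the transcript. In mouse embryonic stem cells the mark is known for letting pluripotency transcripts be cleared when cells differentiate. Gsk-3α and Gsk-3β are serine/threonine kinases that restrain Wnt and insulin signalling, and β-catenin is their best known substrate.

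Most of the DNA of a region of this kind could be shown for Xpc, a DNA damage sensor of nucleotide excision repair. A RefSeq promoter window of a neighbouring gene (build GRCm38.p6) covered 166 bases (78.7%) of its region at chr6:91489935-91490145. Read on the minus strand, which is the strand of Xpc, 1 reading frame ran for 28 codons without a stop and then met a TGA, which is read here as the stop since no coding annotation was used. The letters GGACT, the DNA form of the consensus core, began 49 bases after that stop. The stop (capitals, chr6:91490044-91490073) and the GGACT (capitals, chr6:91489990-91490019) follow, 5′ to 3′, because they place the coding end and the 3'UTR side of such a region on the transcript.
Xpc stop: cgtttgagaagctgTGAagccagtgtcctc
Xpc GGACT: cagatgggctgaGGACTacaggccagatgg
The region had 5 reads in DKO against 64 in wild type, 10.6-fold lower in DKO with a 95% counting interval of 4.30 to 33.6. GGACT also occurred 1 time on the other strand of the 166 bases. Among 32851 RefSeq promoter windows cut to 166 bases, 14.9% held GGACT on the strand given and 28.4% on either, so the match is a description and not a mapped site. For Lrp6, 50 bases were covered in the same way and held no GGACT on either strand.

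All 309 regions had fewer reads in DKO than in wild type, as did every region of the table. The direction is therefore a property of the list. In bulk RNA, fewer cells of a type and less RNA per cell cannot be told apart. Without an input column, less of a transcript and less m6A on it cannot be told apart either. DKO counts ran from 0 to 141 with a median of 2, and wild-type counts from 15 to 2164 with a median of 59.0. The sums were 1812 reads in DKO and 34609 in wild type. Folds are the wild-type count over the DKO count times the constant of 0.825 that the authors' ratio carries, and are given as fold lower in DKO. The fold of the summed counts was 15.8 (counting interval 15.0 to 16.5), against 17.5 (17.3 to 17.7) over all regions. Intervals cover counting error only, since PCR copies were not marked by molecular identifiers, and with 1 library per genotype there was no replicate check and no test.

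DKO reads were absent from 100 of the 309 regions (32.4%, Clopper-Pearson interval 27.2 to 37.9), where 50.5% of all regions had none. Another 91 regions had 1 to 3 DKO reads. For a region with 0 DKO reads the fold was computed as if DKO had 3 counts, and is a lower bound. Where counting intervals are compared, the lower end for such a region rests on the exact upper limit of a count of 0, which is 3.69, and is somewhat lower, as in Irs1 with 65.5. With a count of 0 set at 3, all 309 regions were at least 4-fold lower in DKO, beside 99.9% of all regions. On the same setting 64.4% were at least 10-fold lower, beside 52.5%. Among the 209 regions with DKO reads the median fold was 12.6, between extremes of 4.42 and 539. The log2 of DKO over wild type, with a pseudocount of 0.5, had a median of -4.19 (order-statistic interval -4.63 to -3.92) and quartiles of -5.74 and -3.25. Over all regions the median was -4.93, which is set by the pseudocount, since 50.5% of them had 0 DKO reads. With such regions at their bound the order turned round, the median fold being 12.1 for the 309 regions and 10.4 over all regions. That bound rises with the wild-type count, whose median was 59.0 for the 309 regions and 43.0 over all regions. The median fold and the share at least 10-fold lower therefore depend on depth. Over groups weighted to the wild-type counts of the 309, the geometric mean fold of summed counts was 17.5, against 22.2 in all other regions. On the same weighting it was 15.8 in regions within coding exons and 18.4 in 3'UTR regions without coding sequence. The 309 regions therefore lay between these classes, and the smaller fold than in all other regions was not particular to them.

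**Figure D1:**
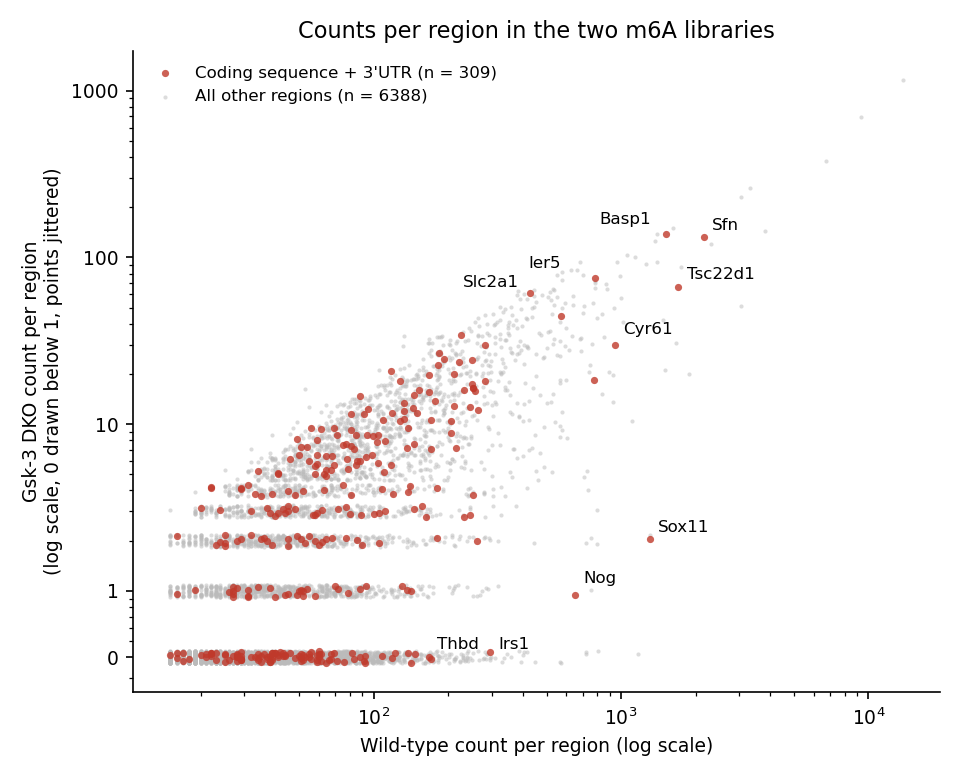
Counts per region in the Gsk-3 DKO library (vertical, log scale, with 0 drawn below 1) and the wild-type library (horizontal, log scale), with the 309 regions over coding sequence and 3'UTR in red and the other 6388 in grey; points are jittered vertically. Among the red points Basp1 and Sfn have the most DKO reads, 141 and 130, while Sox11 and Nog have 2 and 1 at 1308 and 650 wild-type reads.

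The share without DKO reads followed read number. It was 66.7% of the 9 regions with 15 to 19 wild-type reads, 56.8% at 20 to 29, 42.4% at 30 to 49, 30.5% at 50 to 99, 15.1% from 100 to below 200 and 4.35% from 200 to below 500. None of the 9 regions with 500 or more wild-type reads lacked DKO reads, which allows a share of up to 33.6%. A low wild-type count leaves little room for a DKO read, so absence in the shallow regions was not a firm measurement. The fold of the summed counts was 30.9 at 15 to 19 wild-type reads, 19.9 at 30 to 49, 14.6 from 100 to below 200, 12.9 from 200 to below 500 and 16.9 at 500 or more.

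The classes most alike were 1364 regions within coding exons and 619 regions in 3'UTRs without coding sequence. Regions without DKO reads made up 29.2% (26.8 to 31.7) of the coding class and 39.9% (36.0 to 43.9) of the 3'UTR class. Weighted to the wild-type counts of the regions over coding sequence and 3'UTR (32.4%), these shares became 28.1% and 31.5%, and that of all other regions became 43.2%. The fold of the summed counts was 13.2 (12.9 to 13.5) in the coding class and 17.2 (16.4 to 18.0) in the 3'UTR class. The interval of the coding class lay below that of the 309 regions (15.0 to 16.5), a comparison of these 2 libraries in which deep regions weigh most. At matched wild-type counts the intervals overlapped in every group of the plot of regions without DKO reads. Overlap of separate intervals does not exclude a difference in this share between the 3 classes, which was not tested.

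**Figure D2:**
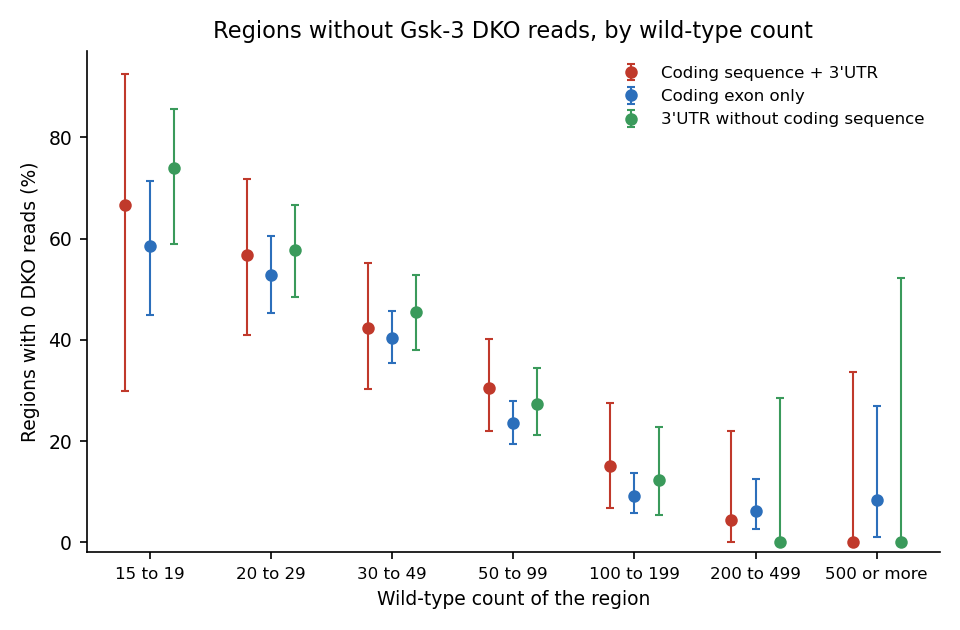
Percentage of regions with 0 Gsk-3 DKO reads (vertical) in groups of wild-type count (horizontal), for regions over coding sequence and 3'UTR (red), within coding exons (blue) and in 3'UTRs without coding sequence (green); bars are 95% Clopper-Pearson intervals. All 3 classes fall with read number, from 66.7%, 58.6% and 73.9% at 15 to 19 reads to 15.1%, 9.09% and 12.3% from 100 to below 200.

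Region length had a median of 224 bases (214 to 234) and a range of 150 to 1460, against medians of 202 (198 to 206) in coding exons, 193 (188 to 197) in 3'UTRs and 191 over the table. The rule itself favours longer regions, since these more readily reach both labels, so the greater length is not a separate result. Per base of region, the median level was 0.00893 reads in DKO and 0.249 in wild type. The wild-type level of the coding class was 0.265 and that of the 3'UTR class 0.212 reads per base. The 17 regions of 500 bases or more held 506 DKO and 10956 wild-type reads, and 2 of them had no DKO reads. The 78 longest regions, at 294 bases or more, were also deeper, with a median of 132 wild-type reads against 35.0 in the 79 shortest, at 183 bases or fewer. The fold of the summed counts was 17.7 in the longest and 13.8 in the shortest. The longest included Sox11, with 2 DKO and 1308 wild-type reads, and Nog, with 1 and 650. Both raise the fold of that group, so a dependence on length cannot be read from these sums.

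The deepest region belonged to Sfn, which encodes 14-3-3σ, a p53 target that halts the cell cycle. It had 130 reads in DKO against 2164 in wild type over 1281 bases of chromosome 4 (133600610 to 133601890), 13.7-fold lower (11.5 to 16.5), and ended 54 bases before the annotated end of the gene. Tsc22d1, a transcriptional regulator induced by TGF-β, had 66 against 1704 (21.3-fold, 16.7 to 27.7) on chromosome 14 (76506454 to 76507216). Basp1, a membrane-bound protein of growth cones, had 141 against 1520 (8.89-fold, 7.48 to 10.6) on chromosome 15 (25364152 to 25364866). These 3 regions and that of Sox11 held 339 of the DKO reads (18.7%) and 6696 of the wild-type reads (19.3%).

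The other regions among the 10 deepest, Nog apart, were those of Cyr61, Ier5, Arl4c, Fam53c and Slc2a1. The matricellular gene Cyr61 (Ccn1) had 31 DKO reads against 947 wild-type reads (25.2-fold, 17.6 to 37.3), and at 2.58 wild-type reads per base its region was the densest of the 309. The immediate-early gene Ier5 had 77 against 782 (8.38-fold, 6.62 to 10.7). Arl4c, a small GTPase of the ARF family, had 20 against 775 (32.0-fold, 20.6 to 52.6). The intervals of Arl4c and Ier5 did not overlap, although both genes had nearly the same wild-type count. Fam53c had 41 against 570 (11.5-fold), and the glucose transporter gene Slc2a1 (GLUT1) had 59 against 428 (5.98-fold, 4.55 to 7.99).

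Sox11 and Nog stood apart from the other deep regions. Sox11, a transcription factor of early neurons, had 2 reads in DKO against 1308 in wild type over 1460 bases of chromosome 12 (27340979 to 27342438), 539-fold lower with a counting interval of 149 to 4459. Nog, the secreted BMP antagonist noggin that favours neural fate, had 1 against 650 on chromosome 11 (89301219 to 89301993), 536-fold lower (95.9 to 21207). Their deposited distances to the transcription start were short, 1010 and 953 bases. Of the 32 regions with at least 200 wild-type reads, 7 had 4 DKO reads or fewer, and the folds of the other 25 ran from 5.02 to 32.0. Sox11, Nog, Irs1, Igf1r, Actn1 and Tmem132a were among the 7.

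Both Igf1r and Irs1 belong to insulin signalling. Igf1r, the receptor for insulin-like growth factors, had 4 reads in DKO against 253 in wild type at chromosome 7 (68226045 to 68226582), 52.2-fold lower (20.1 to 193). Irs1, the adaptor that the activated receptor phosphorylates, had 0 against 295 at chromosome 1 (82286775 to 82287499), at least 81.1-fold lower. That region was also labelled as intron. Of 17 listed genes of insulin, PI3K and mTOR signalling, these 2 had a region across coding sequence and 3'UTR. That list is a selection, and genes of these pathways outside it were not counted. Irs1 also had coding exon regions with 0 DKO reads against 401 and 63 in wild type, and others with 2 against 65 and 3 against 22.

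Of the 10 regions with the lowest log2 values among those at or above the median of the mean of both counts, 8 had no DKO reads, and for these the value is fixed by the wild-type count. After Irs1 they included Wdr13 with 171 wild-type reads (at least 47.0-fold lower in DKO), Thbd with 167 (45.9-fold), Cdca2 with 147 (40.4-fold), Itpkb with 138 (37.9-fold), Mafk with 122 (33.5-fold) and Numbl with 119 (32.7-fold). Thbd encodes thrombomodulin, an anticoagulant receptor, and its other 3 regions, in coding exon, also had 0 DKO reads, against 92, 127 and 70 in wild type. Cdca2 (Repo-Man) recruits protein phosphatase 1 to chromosomes in mitosis. Itpkb phosphorylates inositol trisphosphate, Mafk is a small Maf transcription factor, and Numbl is a homologue of the Notch inhibitor Numb.

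The 10 regions at the other end, passing over predicted genes, had 8 to 59 DKO reads. Stc2, a secreted glycoprotein induced by stress, had 22 reads in DKO against 118 in wild type (4.42-fold, 2.79 to 7.33), the smallest fold of any region with DKO reads here. Also in this set, Ranbp3, a nuclear export cofactor, had 15 against 88 (4.84-fold). The splicing genes Prpf31 and Srsf6 had 10 against 61 (5.03-fold) and 19 against 128 (5.56-fold). Tinagl1, a matrix protein, had 9 against 56 (5.13-fold), Tmem115, a Golgi protein, 28 against 184 (5.42-fold), and Med20, a Mediator subunit, 13 against 95 (6.03-fold). Gata6, the regulator of primitive endoderm, had 8 against 59 (6.08-fold, 2.89 to 14.7), and Slc2a1 belonged to this set too.

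**Figure D3:**
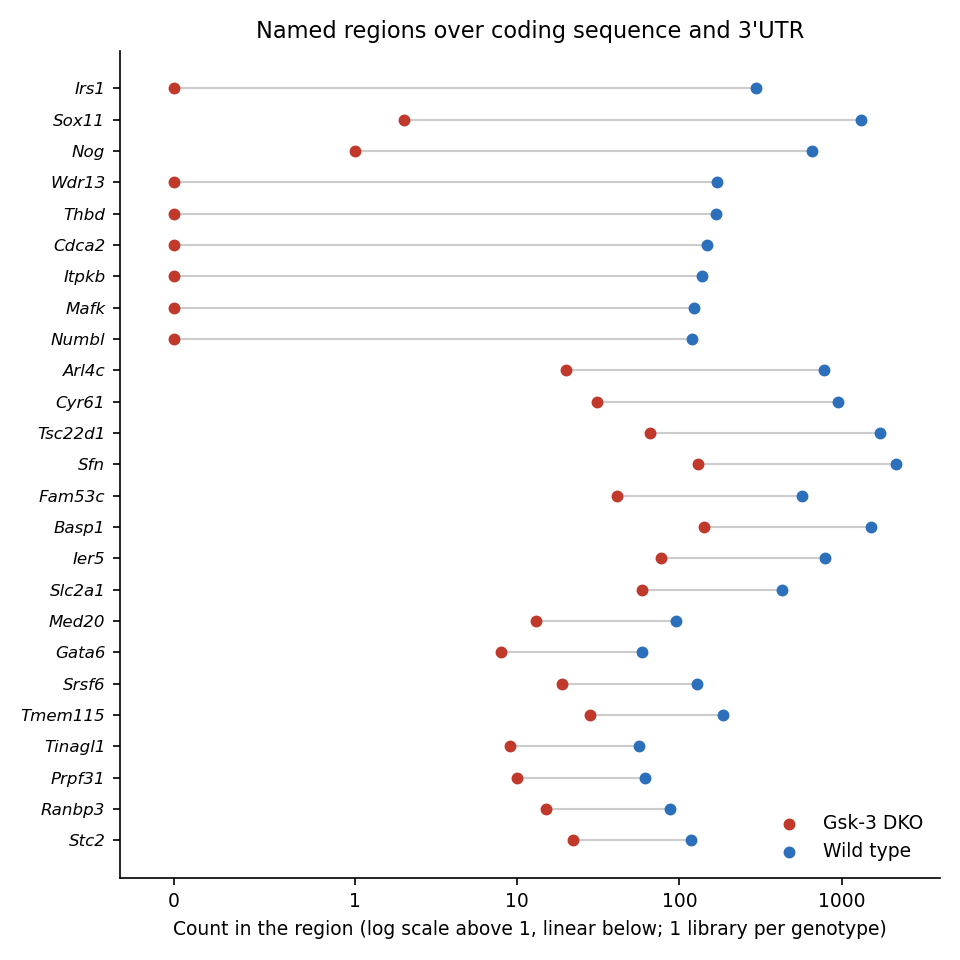
Counts of named regions in Gsk-3 DKO (red) and wild type (blue), 1 library each, on an axis that is logarithmic above 1 and linear below; genes run from the lowest log2 of DKO over wild type at the top to the highest at the bottom. Irs1, at 0 against 295, is at the top and Stc2, at 22 against 118, at the bottom.

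A role was assigned to 158 of the 309 genes, with their values already known, and the groups are therefore descriptions. Counts within a group stand beside 32.4% without DKO reads and 64.4% at least 10-fold lower over the 309. Group medians of log2 depend on the pseudocount: with regions at 0 DKO reads set at their bound, the median fold was 18.6 for secreted factors and 10.7 for RNA processing and translation, while the lowest were 8.82 for mitochondrial and 10.3 for chromatin proteins. In signalling between cells, 11 regions belonged to secreted factors, and 10 of them were at least 10-fold lower in DKO. Their median log2 value was -6.32, against -4.19 over the 309, but it is that of a region with 0 DKO reads, and with such regions at their bound the median folds were 18.6 and 12.1. Their summed counts were 62 in DKO and 2356 in wild type (31.3-fold, or 37.5-fold without Cyr61). Nog supplied 650 of these wild-type reads and 1 of the DKO reads, so the fold would be lower without it. Beside Nog, Inhba, the activin A subunit, had 0 reads in DKO against 55 in wild type. Wnt6 had 0 against 71, Vegfb 0 against 61 and the galectin gene Lgals1 0 against 48. Wnt4 had 3 against 162 (44.5-fold, 15.0 to 218). Lif, the cytokine withheld from the medium, had 2 against 45 (18.6-fold, 4.85 to 158). The exception was Stc2. Tinagl1 (5.13-fold) and Col5a1 (0 against 59, at least 16.2-fold), also genes of the matrix, were given no role. The count of 10 of 11 therefore depends on which genes were put in the group.

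Receptors and other cell-surface proteins had 23 regions, with 117 reads in DKO and 2583 in wild type (18.2-fold). DKO reads were absent from 7 of them, and 13 were at least 10-fold lower. The interferon receptor gene Ifnar1 had 1 against 142 (117-fold, 20.7 to 4658). Lifr, the LIF receptor, had 3 against 41 (11.3-fold, 3.60 to 56.9). In the Wnt pathway the receptor Fzd5 had 1 against 54 (44.5-fold, 7.66 to 1791), its co-receptor Lrp6 11 against 109 (8.17-fold, 4.39 to 16.9), and Dvl3, which acts just below them, 2 against 60 (24.7-fold, 6.56 to 209). The intervals of these 3 genes overlapped. The guidance genes Sema4c and Ephb3 had 1 against 49 and 8 against 77, and the giant cadherin Fat1 24 against 250 (8.59-fold, 5.64 to 13.7).

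Inside the cell, 26 regions belonged to kinases, phosphatases and other signalling proteins, with 106 DKO and 2356 wild-type reads (18.3-fold). Of these, 6 had no DKO reads and 18 were at least 10-fold lower, shares near those of all 309. Pim1, a kinase gene induced by LIF through STAT3, had 3 against 105 (28.9-fold, 9.61 to 142), and the MAP kinase phosphatase gene Dusp1 had 3 against 77 (21.2-fold).

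The 19 DNA-binding transcription factors had 73 reads in DKO and 2522 in wild type. Sox11 supplied 1308 of the wild-type reads, and the fold of their sums was 28.5 with it and 14.1 without it. DKO reads were absent from 7 of the 19 and 10 were at least 10-fold lower. Nkx2-5, a cardiac factor, had 0 against 21. Among neural genes, Sox21 had 4 against 63 (13.0-fold, 4.83 to 49.1) and the Notch effector Hes1 3 against 44 (12.1-fold, 3.88 to 60.9), so that their intervals lay below that of Sox11. Myc had 1 against 38 (31.3-fold, 5.30 to 1270), and the AP-1 genes Junb and Fosl2 had 6 against 104 (14.3-fold) and 11 against 132 (9.90-fold).

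The 10 chromatin regions summed to 86 reads in DKO and 1207 in wild type (11.6-fold). The remodeller gene Chd7 had 4 against 140 (28.9-fold, 11.0 to 107) and the H3K4 methyltransferase gene Mll1 (Kmt2a) 0 against 53, at least 14.6-fold lower. Of 17 regions in genes of RNA processing and translation, 2 had no DKO reads and 9 were at least 10-fold lower, with a median log2 value of -3.42. They included Larp1, which binds capped 5′ terminal oligopyrimidine mRNAs (6 against 117), and Tnrc6c, a partner of Argonaute (3 against 111). Cytoskeletal genes had 14 regions, with 231 DKO and 2920 wild-type reads (10.4-fold, or 12.8-fold without Basp1). The α-actinin gene Actn1 had 3 against 244 (67.1-fold, 22.7 to 328). The tubulin gene Tubb2b had 15 against 152 (8.36-fold).

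All 9 regions of cell cycle and growth arrest genes were at least 10-fold lower in DKO, beside 64.4% of the 309, although for 3 of them, with 0 DKO reads, the fold rests on the count of 3 put in place of 0. Counting intervals stayed above 10-fold only in Sfn, Cdca2, Cdkn2b and Gadd45g. They reached below it in Mcm6 (4.51 to 35.1), Gadd45a, Anapc11, Cdkn1c and Dsn1, the last with 1 against 16 (2.05 to 553). The cyclin-dependent kinase inhibitor genes Cdkn1c and Cdkn2b had 0 against 41 and 3 against 146, the stress genes Gadd45g and Gadd45a 12 against 263 and 6 against 86, and the replication helicase gene Mcm6 5 against 67. The other groups had folds of summed counts of 13.6 in the ubiquitin and NEDD8 system (11 regions), 13.7 for mitochondrial proteins (8) and 10.3 for solute carriers and channels (10). The mitochondrial value was 23.2 without Mrps34 and that of the solute carriers 15.9 without Slc2a1. Among mitochondrial genes, the ATP synthase gene Atp5h had 0 against 83 and the ribosomal protein gene Mrps34 21 against 211 (8.29-fold).

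**Figure D4:**
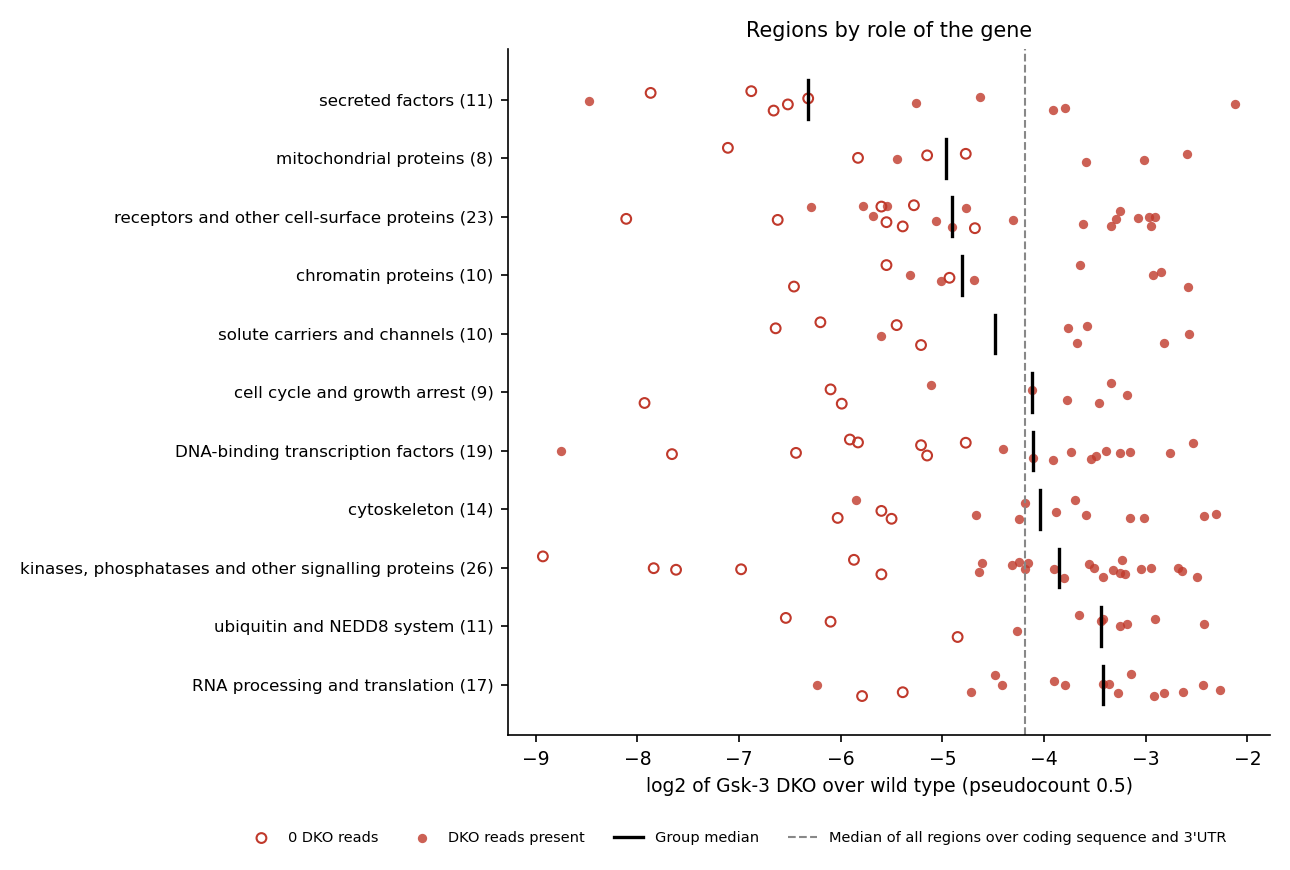
The log2 of Gsk-3 DKO over wild type (horizontal, pseudocount 0.5) for 158 regions over coding sequence and 3'UTR in 11 role groups (vertical, number of regions in parentheses); open points have 0 DKO reads, black bars are group medians and the dashed line is the median of all 309 regions, -4.19. Secreted factors have the lowest median, -6.32, and genes of RNA processing and translation the highest, -3.42, with points that overlap widely; this order depends on the pseudocount given to regions with 0 DKO reads.

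Of all 3882 genes in the table, 7.96% had a region of this kind. Among pathway lists, none of 14 listed pluripotency genes and none of 8 listed genes of the m6A machinery did, counts too small to set apart from that share. The counts were 5 of 20 listed Wnt genes (4 at least 10-fold lower in DKO), 3 of 21 of TGF-β and BMP signalling (all 3), 3 of 12 neural (3), 6 of 27 of immediate response (4), 6 of 32 of matrix and cytoskeleton (4), 3 of 13 of the cell cycle (3), 3 of 20 of RNA processing and translation (2), 3 of 27 of axon guidance and adhesion (1), 2 of 38 chromatin (2), 2 of 15 imprinted (1), 2 of 14 of endoderm and basement membrane (1) and 1 of 13 mesoderm (0). The imprinted genes were Cdkn1c and Peg3, which had 0 reads in DKO against 41 and 22 in wild type. The lists are selections and do not hold every gene of a pathway or role. Wnt4, for instance, had a region of this kind but was not counted among the Wnt genes. The counts therefore describe the lists and not whole pathways.

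Of the 309 genes, 149 had at least 1 further listed region that was not upstream. In 66 genes the deepest region within coding exons could be set beside the region over coding sequence and 3'UTR. The log2 of DKO over wild type of the region over coding sequence and 3'UTR was lower in 38 genes and higher in 28, with a median difference of -0.22 (order-statistic interval -0.79 to 0.25). In 46 genes with a 3'UTR region it was lower in 21 and higher in 25, with a median difference of 0.16 (-0.74 to 1.13). Both intervals include 0. DKO reads were present in both regions in 42 of the 66 genes and in 26 of the 46. In the other genes at least 1 of the log2 values is set by the pseudocount and the wild-type count. Per base, the region over coding sequence and 3'UTR had the higher wild-type level in 32 of the 66 genes and in 31 of the 46.

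In these comparisons with the deepest other region, counting intervals of the fold failed to overlap in 4 genes. These were 2 of the 66 with a coding exon region and 2 of the 46 with a 3'UTR region. The share among region pairs of other genes is not given here, so the 4 are descriptions. In Itpkb, DKO had 0 reads against 138 at the end of the coding sequence, but 37 against 307 (6.84-fold, 4.86 to 9.90) in a coding exon at chromosome 1 (180333153 to 180333511). The next coding exon region along had 1 against 167 (138-fold, 24.4 to 5473), so regions within the gene differed among themselves. In Nog, an overlapping coding region had 14 against 406 (23.9-fold, 14.1 to 44.1), where the region reaching into the 3'UTR had 1 against 650. Basp1 went the other way. Against 141 and 1520 reads at the end of its coding sequence, its 3'UTR region (25363652 to 25363969) had 0 in DKO and 96 in wild type, at least 26.4-fold lower, and its 5'UTR region 6 and 486 (66.8-fold, 30.5 to 183). In Slc2a1 the 3'UTR region, with 5 DKO reads, was 32.8-fold lower (13.8 to 102) beside 5.98-fold (4.55 to 7.99).

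Regions of other genes varied as well. The 3 further regions of Cyr61 had folds of 16.3 (11.4 to 24.0), 55.1 (25.1 to 151) and 43.5 (20.9 to 109) beside 25.2 (17.6 to 37.3), and the intervals of the first and second of these did not overlap. In Tsc22d1, 4 further regions with coding sequence and DKO reads had folds of up to 56.1, and an intron region with 8 against 62 (6.39-fold, 3.05 to 15.5) lay below the region over coding sequence and 3'UTR (21.3-fold, 16.7 to 27.7). In Irs1 the coding exon region with 3 against 22 (6.05-fold, 1.82 to 31.6) lay below the region with 0 against 295. The further regions of Ier5, both in coding exon, had folds of 13.3 and 7.89 beside 8.38. The 3'UTR regions of Sox11 had 0 DKO reads against 74, 63 and 22 in wild type, and the 3'UTR region of Igf1r had 1 against 80 (66.0-fold) beside 52.2.

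**Figure D5:**
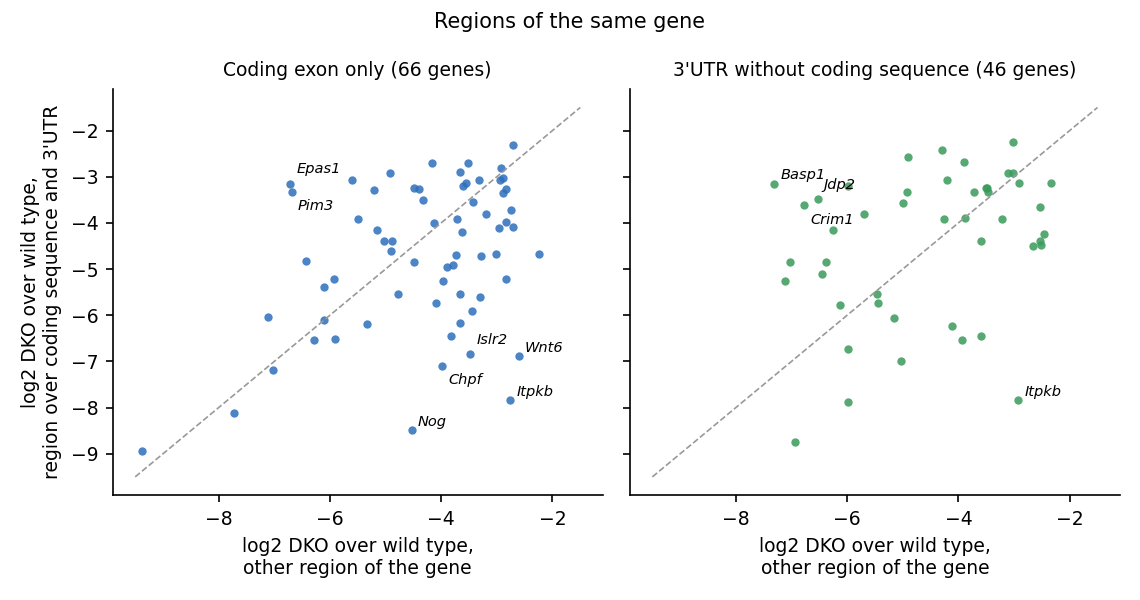
The log2 of Gsk-3 DKO over wild type of the region over coding sequence and 3'UTR (vertical) and of the deepest other region of the same gene (horizontal), for 66 genes with a region within coding exons (left) and 46 with a 3'UTR region without coding sequence (right); the dashed line marks equal values. Points lie on both sides of it, with Itpkb and Nog far below and Basp1 far above.

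Strand and gene end could be taken from RefSeq for 277 regions, 142 on the minus and 135 on the plus strand. The distance from the region to the annotated end of the gene had a median of 1391 bases (quartiles 630 and 2456), and 106 regions (38.3%) lay within 1000 bases of it. Irs1, at 53670 bases, was the farthest, in a region that also carries an intron label. Most regions lay far from the transcription start, with a median deposited distance of 17423 bases, and 28 lay within 2000 bases, Sox11, Nog, Sfn, Ier5, Arl4c and Thbd among them.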

How the data were processed

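m6A immunoprecipitates and inputs of Gsk-3 DKO and wild-type cells were sequenced with an Ion Torrent kit after chemical fragmentation, per the labels' protocols. Bowtie2, DESeq and the build mm9 are named, without role or version, in the submitters' processing notes; no source used here gives the peak caller or the filter. The deposited counts are whole numbers per region. The authors' ratio, the enrichment factor, equalled the wild-type count over the DKO count times a constant (0.82478675 to 0.82478694). The authors' signal, the read density, equalled the wild-type count per base. The deposited distance to the transcription start equalled that to a RefSeq start of GRCm38.p6 within 2 bases in 231 of 308 regions (75.0%), so coordinates, printed as deposited, are read as GRCm38 and not mm9.

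Rows were reduced to distinct regions with Python 3.11.15, pandas 2.3.3 and scipy 1.17.1, and the functions were tested on simulated data. With 1 library per group nothing was tested. The members, gene lists and named-gene rule were chosen with earlier results of these data known. List genes were matched by RefSeq gene identifier and synonym. The rule named the 10 highest wild-type counts, the 10 lowest and 10 highest log2 values at or above the members' median of the mean count, up to 3 genes of each of 15 lists and the 5 deepest genes with at least 2 other regions (46 genes, not all described, after some genes that are not reported here were left out without replacement); other genes were named after their values were seen. Alternatives were pseudocounts of 0.25 and 2, raw counts, a median-ratio factor, a floor of 1, stricter labels and a filter on low counts. Positions relative to annotated stop codons and consensus matches over all regions were not analysed here.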

Additional observations from a re-analysis of the deposited data

How the results depend on the processing

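Of 51 alternative values of the summary results, 42 kept their direction and moved by less than their interval or 1.5 times, and 9 moved more. Across the 46 named genes, 136 of 184 alternative values stayed within the counting interval, 28 moved beyond it and 20 changed sign. The scaling of the libraries decides most. A median-ratio factor computed on these regions, which takes the typical region as unchanged, raised every log2 value by 3.77. Under it the median log2 of the 309 regions was -0.43, 15 regions were at least 4-fold lower in DKO, 2 were at least 10-fold lower, and the fold of the summed counts was 1.16. Because it adds the same amount to every region, the change of sign follows from the size of each log2 value and says nothing more about a gene. The values above 0 under it were 0.62 for Basp1, 0.86 for Ephb3, 0.26 for Fam53c, 0.69 for Fat1, 0.52 for Fosl2, 1.24 for Gata6, 0.38 for Hes1, 0.71 for Ier5, 0.79 for Lrp6, 0.43 for Mcm6, 1.22 for Med20, 1.49 for Prpf31, 1.53 for Ranbp3, 1.20 for Slc2a1, 0.23 for Sox21, 1.32 for Srsf6, 1.65 for Stc2, 1.47 for Tinagl1, 1.35 for Tmem115 and 0.75 for Tubb2b. On raw counts, without the constant, the fold of the summed counts was 19.1. With a pseudocount of 2 the median log2 was -3.48. When only regions whose mean count reached the table's median were kept, 43 had no DKO reads, the median wild-type density was 0.331 reads per base and the median length 259 bases. No paired analysis was possible because each group had 1 library, and for the same reason no replicate could be left out. Depth limits the regions with few wild-type reads, where a count of 0 in DKO sets only a small lower bound.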
